A study of Mesocricetus auratus with 8 samples.

Results

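Matricellular proteins are secreted into the extracellular matrix, where they adjust how cells grip the matrix and how growth factors and collagen are handled, and most of them do little as structural scaffold. In the adult heart many are scarce at rest and are known for their appearance after infarction, pressure overload or inflammation. Fibronectin, an adhesive glycoprotein laid down early in wound repair, is treated with them here. The genes described are the 9 rows of the count table named Sparc, Postn, Tnc, Thbs1, Thbs4, Smoc1, Smoc2, Fn1 and Cilp, of 20360 rows in all. They were taken by name and function, with earlier results of these data known.

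The data are polyA RNA counts from the hearts of 8 female golden hamsters (Mesocricetus auratus), 1 library for each animal code. The series design gives their age as 25 weeks, ahead of dilated cardiomyopathy (DCM), and their genotypes as Myh6 loss of heterozygosity (LOH) and WT (wild type). Myh6 encodes the alpha cardiac myosin heavy chain. Each heart carries a label (M5F5 and M5F7, M5F12 and M5F16, M5F19 and M5F22, M5F55 and M5F56), and the labels give no genotype for any of them, nor the part of the heart that was sampled. LOH and WT hearts were therefore not compared, the hearts are not taken as replicates, and every value below is that of a single animal or a range and median over the 8. Myh6 itself was not analysed here, so the targeted gene gave no check of the animals.

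Total counts ran from 13608500 to 15255764 per library. Levels are given as CPM, the usual depth-scaled count unit, after scaling between libraries, and a count of 3 in a library equalled 0.199 to 0.214 CPM. Intervals are exact 95% Poisson intervals, which cover counting error only and not differences between animals or library preparations. Reads lacking molecular identifiers need not come from separate molecules, so even counting error may be understated. CPM is not corrected for transcript length, so levels are compared between hearts for 1 gene and not between genes. Summed markers of heart muscle cells (8 genes, among them Tnnt2 and Myl2) ran from 61609.9 to 79490.0 CPM, and 11 fibroblast markers such as Dcn and Pdgfra from 1337 to 1649 CPM. Markers of valve and cartilage (8 genes) summed to 4.09 to 5.60 CPM.

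The 9 genes did not vary alike. Of the 9, 8 reached a mean count of 50 over the libraries, the minimum for testing. Smoc2, with a mean count of 46.6, lay just below that limit, and Tnc, with 55.4, and Thbs4, with 57.8, lay just above it. In 6 of the 8 tested genes (Sparc, Postn, Tnc, Thbs1, Thbs4 and Smoc1) the highest heart exceeded the lowest at least 2-fold with a chi-square adjusted p under 0.05. That rule was met by 13.9% of all 10909 genes tested. By a trimmed range, which drops both extremes and runs from the second-lowest to the second-highest heart, 4 of the 8 (Postn, Tnc, Thbs4 and Smoc1) still spanned 2-fold, against 2.85% of all genes tested. The chi-square test alone, which asks only whether counts differ beyond counting error, was passed by all 8 but also by 86.4% of all genes. The median tested member spanned 3.27-fold, and 1.96-fold by the trimmed range, while the median of all genes tested was 1.45-fold and 1.25-fold. Most members have low counts, which widen a range, and the members were chosen with earlier results of these data known. These figures therefore describe these hearts and are no test of the group.

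**Figure D1:**
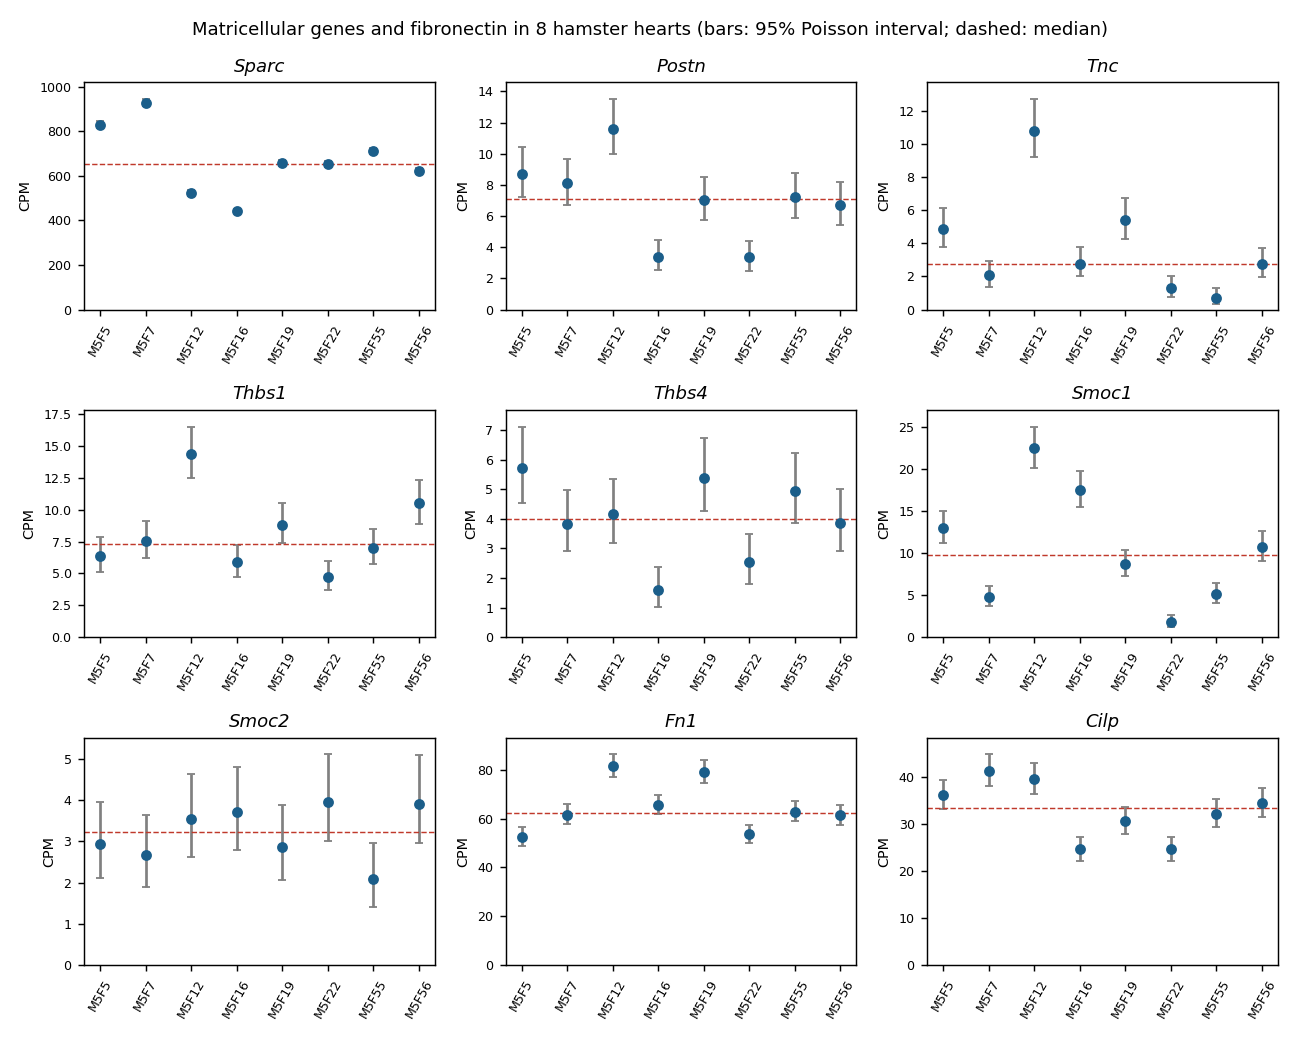
CPM of the 9 genes (y axis, linear, starting at 0) in each of the 8 libraries (x axis), with exact 95% Poisson intervals as bars and the median as a dashed line. Smoc1 and Tnc span more than 10-fold between hearts, whereas Fn1 stays between 52.6 and 81.7 CPM.

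**Figure D2:**
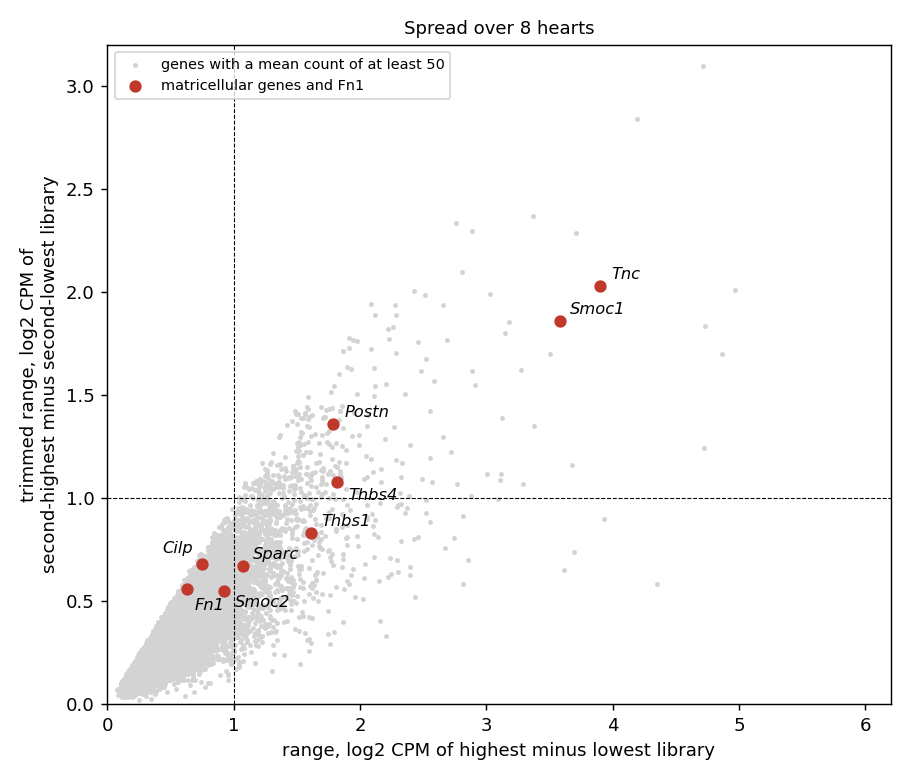
Range (x axis) against trimmed range (y axis), both in log2 CPM, for the genes that reached a mean count of 50 (grey; 1 gene lies outside the axes) and for the 9 genes described (red), with dashed lines at 2-fold. Tnc and Smoc1 lie at the upper right, at ranges of 3.90 and 3.58, while Fn1, Cilp and Smoc2 lie to the left of the 2-fold line.

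Within the SPARC family, Smoc1 spanned far more than Sparc or Smoc2. Sparc encodes osteonectin, a collagen-binding glycoprotein made by fibroblasts and endothelial cells that helps process procollagen. It stood at 928 CPM in M5F7, 829.7 in M5F5, 709.9 in M5F55, 656 in M5F19, 652 in M5F22, 620.3 in M5F56, 523 in M5F12 and 443 in M5F16. With 6684 to 13544 counts per library, 6 of the 7 steps in that order had intervals that did not overlap, and only M5F19 and M5F22 did not separate. The span was 2.10-fold and the trimmed span 1.59-fold. Its 2-fold call rested on the extremes, as the span was 1.87-fold without M5F7 and 1.77-fold without M5F16.

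Smoc1 and Smoc2 encode related calcium-binding proteins that sit mainly at basement membranes, and SMOC1 is known as a modulator of bone morphogenetic protein signalling. Smoc1 was at 22.5 CPM in M5F12, 17.5 in M5F16, 13 in M5F5, 10.7 in M5F56, 8.74 in M5F19, 5.14 in M5F55, 4.80 in M5F7 and 1.84 in M5F22. The order had no single break. M5F12, M5F16 and M5F22 were each separated from their neighbours, as was M5F19 from M5F55, and the widest step was 2.60-fold, between M5F7 and M5F22. The lowest value rested on 27 counts (95% interval 1.22 to 2.68 CPM) and the highest on 324 (20.1 to 25.0 CPM), a 12.2-fold span. Only 4.68-fold was left without M5F22, and 9.52-fold without M5F12. The trimmed span was 3.66-fold.

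Smoc2 showed none of this. It ranged from 2.08 CPM in M5F55 to 3.96 in M5F22, with a median of 3.23, on 30 to 58 counts. The intervals of every 2 neighbouring hearts overlapped, and its chi-square was 2.05 per degree of freedom, where counting error gives 1 and Smoc1 gave 66.9. The heart that held the lowest Smoc1, M5F22, held the highest Smoc2. Its Smoc2 interval (3.01 to 5.12 CPM) overlapped that of M5F12 (2.63 to 4.65 CPM), however. The ratio of Smoc1 to Smoc2 counts was 0.466 in M5F22 and 6.35 in M5F12, 13.6-fold apart, mostly through Smoc1.

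Postn and Tnc are both known for their induction after cardiac injury. Postn encodes periostin, which marks activated fibroblasts and takes part in collagen assembly. It was at 11.6 CPM in M5F12, 8.71 in M5F5, 8.09 in M5F7, 7.22 in M5F55, 7.03 in M5F19 and 6.73 in M5F56, and at 3.38 in M5F16 and 3.35 in M5F22. Those last 2 hearts stood apart from the other 6, with upper interval bounds of 4.44 and 4.42 CPM against lower bounds of 5.45 CPM or more, and the step between M5F56 and M5F16 was 1.99-fold. It was the only neighbouring pair whose intervals did not overlap. The 3.48-fold span was 2.60-fold without M5F12. The trimmed span of 2.58-fold needed both low hearts, and was 1.30-fold without either M5F16 or M5F22.

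Tnc encodes tenascin-C, a large anti-adhesive glycoprotein that is scarce in the healthy adult heart. It was at 10.8 CPM in M5F12 on 156 counts, 5.39 in M5F19, 4.86 in M5F5, 2.78 in M5F16, 2.73 in M5F56, 2.06 in M5F7, 1.30 in M5F22 and 0.694 in M5F55. The M5F55 value rested on 10 counts (95% interval 0.333 to 1.28 CPM). M5F12 was separated from every other heart (9.18 to 12.7 CPM), and M5F19 and M5F5 from the 5 below them. The 15.6-fold span was 7.77-fold without M5F12 and 8.34-fold without M5F55, and the trimmed span was 4.16-fold. Without M5F12 the mean Tnc count would be 41.0, below the minimum for testing.

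Tnc and Postn were both highest in M5F12 and both low in M5F22, but parted in M5F55, where Postn lay at its median and Tnc at its lowest. They also parted in M5F16, where Tnc lay at its median. Of 10 genes listed for activated fibroblasts, 4 reached the minimum for testing (Acta2, Ddah1, Col8a1 and Lox). Their medians were 415, 34.9, 12.9 and 6.11 CPM. Col8a1 alone of them spanned 2-fold (2.04-fold), a rule met by 13.9% of all genes tested. Acta2, the smooth muscle actin gene, is also a gene of vessel walls. Of the 6 below that minimum, Timp1 had a median of 2.16 CPM, Comp 1.76 and Ltbp2 1.16, and the other 3 were lower. Cthrc1 ran from 0.0693 to 0.615 CPM, Meox1 from 0 to 0.428 and Fap from 0.273 to 1.11.

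The 2 thrombospondins differed from each other. Thbs1 encodes thrombospondin-1, released by platelets and made by vascular and stromal cells, which activates latent TGF-beta and restrains vessel growth. It was at 14.4 CPM in M5F12 (12.5 to 16.5), 10.5 in M5F56, 8.81 in M5F19, 7.54 in M5F7, 7.01 in M5F55, 6.36 in M5F5, 5.89 in M5F16 and 4.71 in M5F22. M5F12 was the only heart separated from its neighbour. The span was 3.06-fold, 2.23-fold without M5F12, and 1.78-fold after trimming.

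Thbs4 encodes thrombospondin-4, which in mice is induced in strained heart muscle and engages the endoplasmic reticulum stress sensor Atf6. Its levels were 5.71 CPM in M5F5, 5.39 in M5F19, 4.93 in M5F55, 4.16 in M5F12, 3.85 in M5F56, 3.84 in M5F7, 2.53 in M5F22 and 1.59 in M5F16. The counts were 24 to 80, so no 2 neighbours were separated, although the interval of M5F16 (1.02 to 2.36 CPM) lay below those of the other hearts except M5F22. The span was 3.59-fold, or 2.26-fold without M5F16, and the trimmed span of 2.13-fold fell under 2-fold without any 1 of M5F5, M5F16, M5F19 or M5F22. In M5F12, where Thbs1 was highest, Thbs4 was near its median. Atf6 was lowest in M5F5 at 13.6 CPM and highest in M5F22 at 22.7. Nppa, the natriuretic peptide gene of atrial and of strained ventricular muscle, was at 971 CPM in M5F5, 382 in M5F55 and 305 in M5F19, the 3 hearts highest for Thbs4, and at 53.2 to 215 in the other 5, the last value in M5F16. The 5 atrial markers summed to 1016 CPM in M5F5, of which Nppa made up most, and to 91.4 CPM in M5F7, where Nppa was at 53.5 and Stard10 at 23.9 CPM. The atrial Sln stayed at 0.143 to 0.956 CPM. The part of atrial tissue in the Thbs4 level was not tested.

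Fn1 and Cilp were the steadiest of the well-counted members. Fn1 was at 81.7 CPM in M5F12 and 79.3 in M5F19, and at 65.8 in M5F16, 63.0 in M5F55, 61.7 in M5F7, 61.4 in M5F56, 53.7 in M5F22 and 52.6 in M5F5. The upper pair was separated from the other 6, and its span was 1.55-fold. Cilp, which encodes cartilage intermediate layer protein, a fibroblast product that binds TGF-beta, was at 41.3 CPM in M5F7, 39.6 in M5F12, 36.1 in M5F5, 34.4 in M5F56, 32.2 in M5F55 and 30.7 in M5F19. It was at 24.7 CPM in M5F22 and 24.6 in M5F16, separated from the other 6, for a span of 1.68-fold. M5F16 and M5F22 were also the 2 lowest hearts for Postn and for Thbs4.

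**Figure D3:**
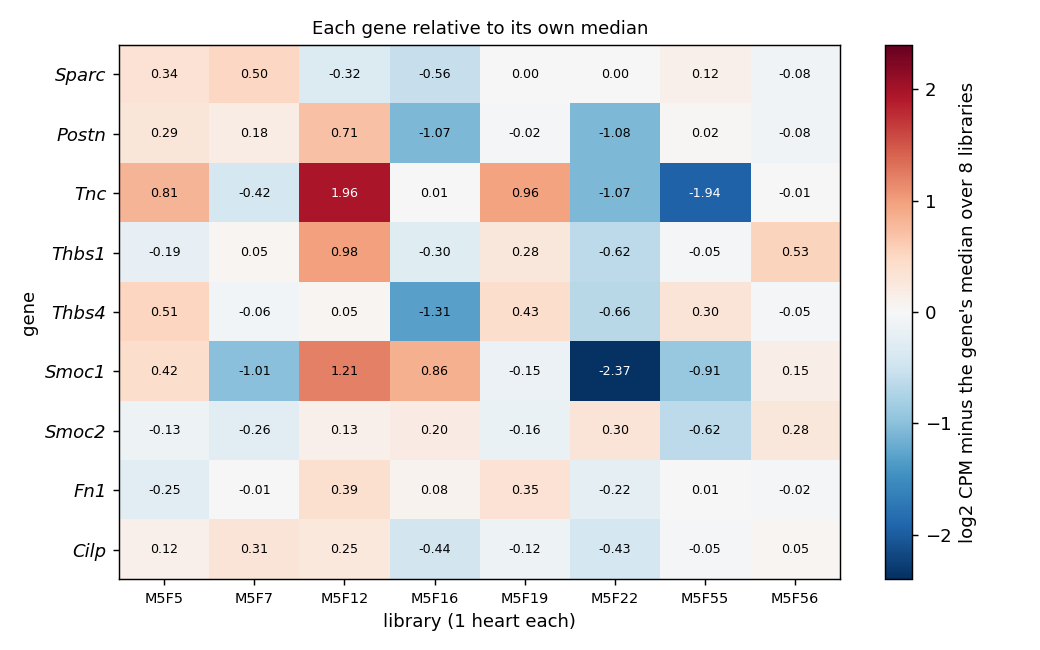
Log2 CPM minus the gene's median (colour and printed value) for the 9 genes (rows) in the 8 libraries (columns). M5F12 is above the median for 8 of the 9 genes, with Sparc the exception at -0.32, and M5F22 is below it for 8, with Smoc2 the exception at 0.30.

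By heart, M5F12 held the highest value of 5 members (Postn, Tnc, Thbs1, Smoc1 and Fn1), all among the 8 tested, while it held the highest value of 9.26% of all genes tested and of 14.0% of those past the 2-fold rule. M5F22 held the lowest value of 3 (Postn, Thbs1 and Smoc1), against 9.71% of all genes tested. Sparc, Thbs4 and Cilp were lowest in M5F16, as were 1308 of the 10909 genes tested. The median member lay 0.39 above its own median in M5F12 and 0.62 below it (-0.62) in M5F22, on the log2 scale, with the median of all genes tested at -0.01 and 0.01. Sparc went against the others in M5F12, where it was second-lowest. The ratio of Sparc to Fn1 counts was 6.40 in M5F12 and 15.8 in M5F5, a 2.46-fold difference.

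M5F12 also had the highest summed markers of platelets and of macrophages. Of 8 platelet genes, 6 were highest in M5F12, but only 1 of the 8, Ppbp, reached the minimum for testing. The sum of the 8 was 38.4 CPM in M5F12 against 13 to 16.4 in the other 7. Most of it was Ppbp, the platelet basic protein, at 28.9 CPM in M5F12 and 9.65 to 12.3 elsewhere, and the lineage-defining Gp9 was at 0 in 5 of the 8 libraries. Of 9 macrophage genes 7 were highest in M5F12 (5 of the 7 tested), with a sum of 162 CPM there against 82.3 to 136. Mrc1 was highest in M5F22 instead, and Cd163 in M5F16. Of the 8 heart muscle markers 7 were lowest in M5F12. Over all genes tested, M5F12 was lowest for 13.9% and highest for 9.26%. Fibroblast markers summed to 1379 CPM in M5F12, third-lowest of the 8. In bulk tissue, fewer cells of a type and less RNA per cell cannot be told apart, and the part of these markers in the levels of Thbs1, Tnc, Smoc1, Postn and Fn1 was not tested.

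**Figure D4:**
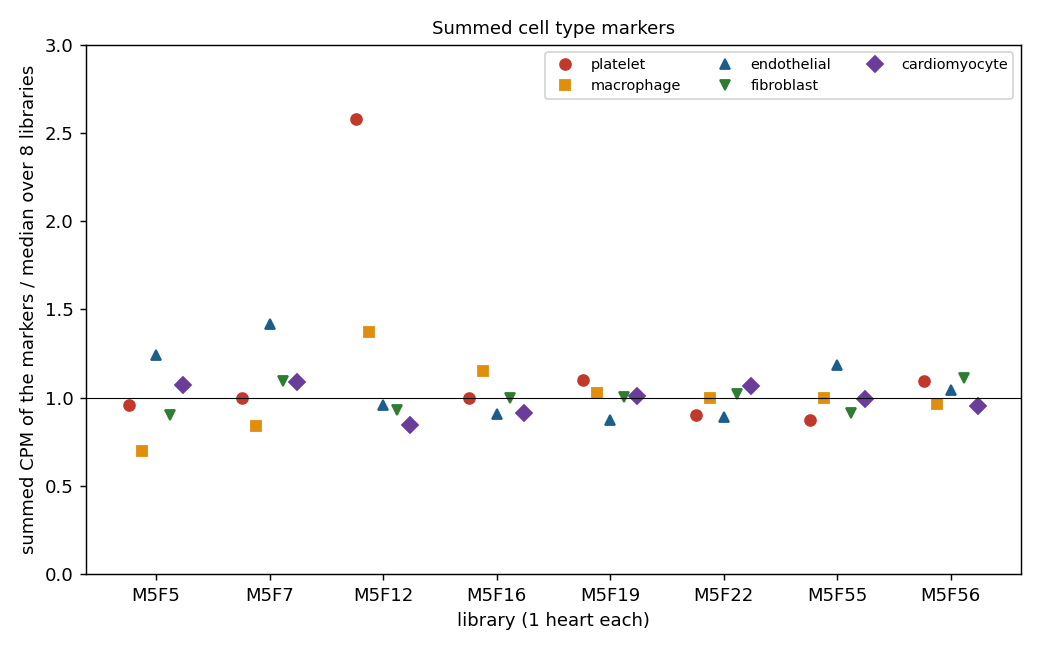
Summed CPM of 5 marker lists divided by the median of that sum over the 8 libraries (y axis, linear, starting at 0) for each library (x axis). The platelet sum in M5F12 is 2.58 times its median and lies apart from all other points, and the macrophage sum there is 1.37 times its median.

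Sparc was highest in the heart with the highest endothelial markers. The 10 endothelial genes, among them Cdh5 and Tie1, summed to 1922 CPM in M5F7, 1681 in M5F5 and 1604 in M5F55, the same 3 hearts that led for Sparc, and to 1179 to 1409 in the other 5. M5F7 held the highest value of 7 of these 10 genes, against 17.7% of all genes tested. It also had the highest smooth muscle and pericyte sum, 1829 CPM against 1369 to 1587. In M5F16, lowest for Sparc, 7 of the 10 smooth muscle and pericyte genes were lowest as well, against 1308 of all 10909 genes tested. The part of these cells in the Sparc level was not tested. Taken per 1000 CPM of the summed fibroblast markers in the same heart, the 6 genes that met the 2-fold rule still met it. That sum itself spanned only 1.23-fold. Of the 6, therefore, only Sparc, at 2.10-fold, could have fallen under 2-fold. Sparc then spanned 2.08-fold, with M5F5 highest in place of M5F7. Thbs1 spanned 3.37-fold, Postn 3.83-fold, Thbs4 3.98-fold, Smoc1 13.4-fold and Tnc 15.3-fold. Most of the fibroblast sum came from Gsn, Dcn and Dpt (medians of 657, 459.6 and 196 CPM), with Pdgfra at 28.5 CPM.

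For each tested member the genes with the closest profile were found among all genes tested, by the root mean square (RMS) difference of log2 CPM over the 8 hearts after each gene's median was subtracted. Each is the nearest of 10908 candidates, so some closeness is built in. For Cilp the nearest were the collagen gene Col16a1 (RMS difference 0.041), Slc20a1 (0.042) and Endod1 (0.093), against 0.319 for the median gene. For Sparc the nearest was another collagen gene, Col5a1 (0.092), then Slc9a3r2 and Timm8b (0.099 each), against 0.357. For Fn1 they were Pprc1 (0.073), Prr14l (0.075) and Dpysl3 (0.082), against 0.288. All 3 genes nearest to Sparc were highest in M5F7 and lowest in M5F16, as Sparc was.

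The other tested members, with lower counts and wider spans, had larger RMS differences from their nearest genes. For Smoc1 the nearest were Mmp24, a membrane-bound metalloproteinase gene (0.402), Plvap, a gene of endothelial diaphragms (0.469), and Lepr, the leptin receptor (0.490), against 1.129 for the median gene. Plvap (0.617) and Mmp24 (0.713) were also the closest pair for Tnc, followed by Slc9a3r1 (0.714), against 1.160. Plvap was at 32.9 CPM in M5F12, 22.3 in M5F5, 18.1 in M5F16, 13 in M5F56, 12.6 in M5F19, 7.81 in M5F7, 7.50 in M5F55 and 5.46 in M5F22. Mmp24 was highest in M5F12 at 19.3 CPM and lowest in M5F22 at 2.19. All 3 genes nearest to Smoc1 lay below their medians in M5F7, M5F22 and M5F55, as did Smoc1 and Tnc.

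**Figure D5:**
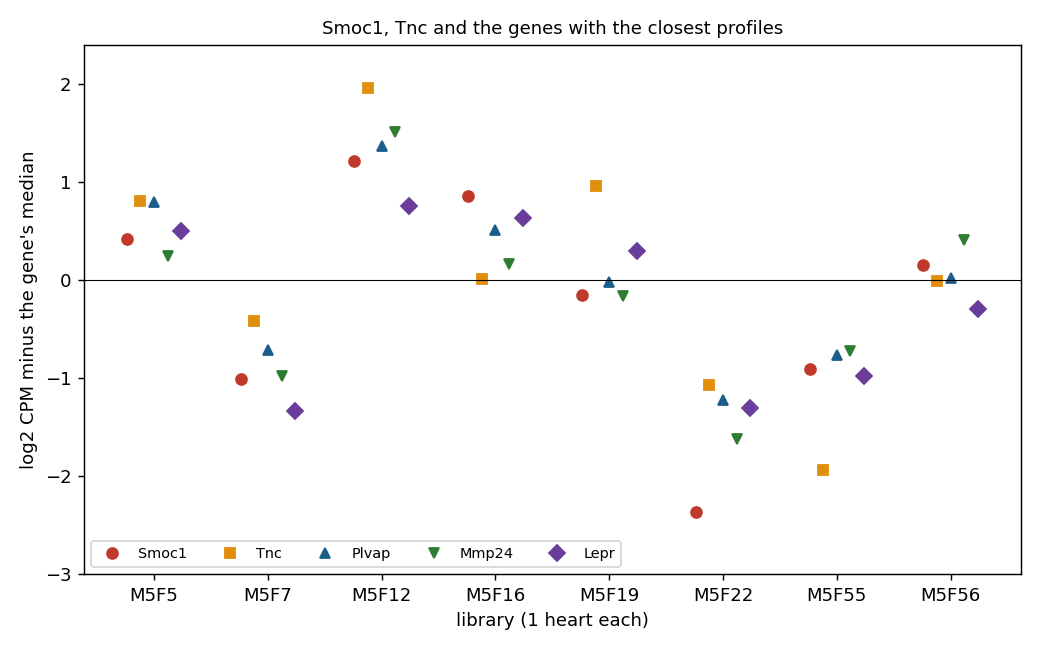
Log2 CPM minus the gene's median (y axis) in the 8 libraries (x axis) for Smoc1, Tnc and 3 genes of close profile, Plvap, Mmp24 and Lepr. All 5 lie above their medians in M5F5 and M5F12 and below them in M5F7, M5F22 and M5F55.

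For Postn the closest were Ctnnal1 (0.298), the metallothionein gene Mt2a (0.304) and Tgfb1 (0.305), against 0.634. Tgfb1, whose product drives fibroblast activation, was at 20.2 CPM in M5F12 and 9.08 in M5F22, its extremes, with 10.5 in M5F16. In M5F7 Tgfb1 was nearly as high as in M5F12, at 19.9 CPM, whereas Postn was at 8.09 in M5F7 and 11.6 in M5F12. For Thbs1 they were Tmem255b (0.208), the leukocyte integrin gene Itgb2 (0.233) and the hyaluronan receptor gene Cd44 (0.245), against 0.520. Cd44 was at 16.2 CPM in M5F12 and 6.35 to 9.99 elsewhere, and Itgb2 at 10.1 and 4.44 to 7.01. The nearest to Thbs4 were B9d1 (0.250), Bloc1s3 (0.288) and Igsf8 (0.306), against 0.608.

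Among the members themselves, Postn was closest to Thbs4 (RMS difference 0.362) and to Cilp (0.372), the 18th and 28th nearest of all genes tested. Tnc had Smoc1 as its 17th nearest (0.849) and Thbs1 as its 50th (0.921). Thbs1 had Fn1 as its 97th nearest (0.351). Of the 36 pairs of members, the largest differences were those of Sparc with Smoc1 (1.294) and with Tnc (1.269).

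Other matricellular genes, were taken from a list of 25, of which 24 matched a row. Of 15 tested, 7 spanned 2-fold, with a median span of 1.79-fold, and 2, Ctgf and Fbln1, did so by the trimmed range. Over all genes tested the shares were 13.9% and 2.85%, and the median span was 1.45-fold. Ctgf, a growth factor-binding matricellular gene, was at 769 CPM in M5F19 and 113 to 272 elsewhere. Fbln1, which encodes the matrix protein fibulin-1, was at 25.6 CPM in M5F12 and 19.7 in M5F16, the hearts highest for Smoc1, and at 7.63 to 11.9 in the other 6. Thbs2, a close relative of Thbs1, was likewise highest in M5F12, at 28.3 CPM, with 23.3 in M5F16 and 13.2 to 19.9 elsewhere, whereas Thbs3 was lowest in M5F12, at 13.2 CPM, and reached 29.0 in M5F7. Sparcl1, the relative of Sparc, ran only from 577 CPM in M5F16 to 837 in M5F7, the same 2 hearts that bounded Sparc. Spock2 spanned 2.76-fold and Mgp 1.31-fold. Spp1, which encodes osteopontin, stayed under 2 CPM in all 8 hearts.

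Of 17 receptors for these proteins 13 were tested, and 3 spanned 2-fold, against 13.9% of all genes tested. The median receptor spanned 1.67-fold. The widest was Cacna2d1, a calcium channel subunit that binds thrombospondins, at 41.5 CPM in M5F5, 46.9 in M5F7, 64.8 in M5F55 and 69.6 in M5F56, and at 103 to 135 in the other 4. Itgb3, the partner of Itgav in a vitronectin receptor that also binds periostin, ran from 2.73 CPM in M5F22 and 3.05 in M5F16 to 5.96 in M5F12. Itgb5 had 31.6 CPM in M5F22, its highest heart, and 13 CPM in M5F7, its lowest. The thrombospondin receptors Cd47 and Cd36 spanned 1.15-fold and 1.46-fold, Itgb1, of the main fibronectin receptor, 1.23-fold, and its partner Itga5 1.81-fold. Itga9, a tenascin-C receptor subunit, was highest in M5F12 at 189.6 CPM, with 185 in M5F16, and lowest in M5F7 at 103.

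Of 14 matrix partners, mostly collagens, only Eln spanned 2-fold (2.19-fold), and none did so by the trimmed range. The shares of all genes tested were 13.9% and 2.85%. The median span of the partners was 1.58-fold. M5F7 held the highest value of 7 of the 14, against 17.7% of all genes tested. M5F16 held the lowest of 7, against 1308 of all 10909 genes tested. M5F7 and M5F16 also bounded Sparc. Col3a1 ran from 226 to 391 CPM and Col1a2 from 162 to 226 CPM. Of 19 upstream regulators 16 were tested and 3 spanned 2-fold (Tgfb1, Smad3 and Tead1), against 13.9% of all genes tested. The median regulator spanned 1.52-fold. Smad3, which relays TGF-beta signals, was at 33.7 CPM in M5F7 and 69.7 in M5F16. Tead1, a transcription factor of the Hippo pathway, was at 89.3 CPM in M5F7, 93.7 in M5F5, 137 in M5F55 and 146 in M5F56, and at 265 to 336 in M5F12, M5F16, M5F19 and M5F22. None of the 9 members had those last 4 hearts as its 4 highest.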

How the data were processed

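RNA was extracted with Trizol and polyA-selected, per the labels' protocols. The submitters' processing notes name HISAT2 2.0.4, Bowtie2 2.2.5 and RSEM, without roles. Genome build and annotation: not given in the sources used here. The authors deposited 1 table of whole-number counts per gene, unnormalized; whether estimated counts were rounded is not stated. A gene that shares reads with a near-identical copy may be over- or undercounted.

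Counts were scaled by TMM (edgeR 4.0.16, R 4.3.3; log2 with prior count 0.5). Ranges over the 8 libraries were computed in Python 3.11.15 for the 10909 genes that reached a mean count of 50. A gene was called at a 2-fold range and a chi-square test of equal relative abundance (scipy 1.17.1, Benjamini-Hochberg adjusted p under 0.05 over all genes tested), which covers counting error only; ranges have no replicate check. The code was tested on simulated data. Alternatives were DESeq2 1.42.0 size factors, other scalings, filters and prior counts, and leaving out each library.

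Members and lists were chosen with earlier results of these data known. All members were named, with the 3 nearest genes of each tested one. The naming rule also covered the 3 most abundant and 3 most variable genes of each list, of which only some are printed; which of them, and any gene outside the rule, were chosen after their values were seen. Of 4676 LOC identifiers, 543 took a name from the RefSeq gene table (BCM_Maur_2.0).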

Additional observations from a re-analysis of the deposited data

Results flagged for a closer look

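Tnc in M5F12, at 10.8 CPM, stood away from the other 7 hearts, of which the next was at 5.39 CPM. The gap was 0.536 of the whole range, just above Dixon's 95% critical value for 8 values. The rule was applied to linear CPM, and the flag depends on that scale. On the log2 scale the gap was a smaller part of the range of 3.90, with M5F12 at 1.96 and M5F19 at 0.96 above the median. Chance flags about 1 in 20 sets of values, and 9 genes were examined. The 8 hearts are not a labelled group and hold an unknown mix of LOH and WT, so the rule describes the spread and names no faulty library. M5F12 was also the heart with the highest platelet and macrophage marker sums, and their part in the Tnc value was not tested.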

How the results depend on the processing

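With DESeq2 size factors, plain library totals or TMM without the 10 most abundant genes, the members past 2-fold numbered 6, and 4 by the trimmed range, as in the values reported. Per-gene spans kept their side of 2-fold in 247 recomputations and lost it in 9. The 9 were Sparc (1.87 without M5F7, 1.77 without M5F16), trimmed Postn (1.30 without M5F16 or M5F22) and trimmed Thbs4 (just under 2-fold with a prior count of 5, 1.95 without M5F5 or M5F19, 1.41 without M5F16 or M5F22). When 1 of 8 libraries is dropped, a trimmed range cannot widen. It narrows if that library is among the 2 highest or 2 lowest, and otherwise stays the same.

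The filter mattered most. With no filter, 3846 genes passed the full rule and 1938 the trimmed rule, with 13 companions and 5 receptors. At a mean count of 500, 4683 genes were left, including 2 members, 7 companions and 9 receptors. Of these, 324 genes passed the full rule and 86 the trimmed one, with 1 member, 0 members by the trimmed range, 2 companions and 1 receptor. Leaving out each library in turn, with the set of tested genes kept, gave 5 to 6 members and 2 to 4 by the trimmed range. Without M5F12, Tnc was thus still counted, at a mean count of 41.0. Companions numbered 4 to 7, and genes past the trimmed rule 139 to 278. The lowest came without M5F7 (139), and 165 came without M5F5. The 4 companions came without M5F12, and the 2 members without M5F16 or M5F22.

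No paired analysis was possible because the labels put no library in a group. Low counts limit Smoc2, Tnc and Thbs4.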

Other observations

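Timp1, which encodes an inhibitor of matrix metalloproteinases, was at 8.18 CPM in M5F12 and at no more than 2.60 CPM in the other 7 hearts. Vwf, the von Willebrand factor gene of endothelial cells and platelets, was at 186 CPM in M5F12 and 63.4 CPM in M5F22, the hearts that bounded Smoc1, and at 88.4 to 119 CPM in the other 6. Among the 10 endothelial markers Vwf was the only one highest in M5F12, and Emcn was the only other one lowest in M5F22. Plvap, outside that list, had the same highest and lowest hearts as Vwf. Cdh5 was at 222 CPM in M5F12, its lowest value, and 274 CPM in M5F22. Timp1 and Vwf were singled out after their values were seen.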
